A study of Mus musculus with 4 samples.

Results

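The replication-dependent histone genes supply most of the histone protein that packages newly copied DNA. The genes examined here are the 64 of 20032 genes in the deposited table whose symbol begins with Hist1h, Hist2h, Hist3h or Hist4h followed by a core or linker histone class. They were measured in olfactory bulbs of mice that lack the transcription factors Sp8 and Sp9 in the interneuron lineage, and in littermate controls. By class they are 6 genes of the linker histone H1, 15 of H2A, 19 of H2B, 11 of H3 and 13 of H4. In GENCODE M21 (mouse build GRCm38), 50 of them lie on chromosome 13, 10 on chromosome 3, 3 on chromosome 11 and 1 on chromosome 6. There 63 are annotated as protein-coding, and Hist3h2bb-ps is a processed pseudogene.

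As background, core histones H2A, H2B, H3 and H4 form the spool around which DNA is wound, and H1 binds where DNA enters and leaves it. Most genes of these clusters are transcribed in S phase, when a dividing cell copies its DNA. Their messages end in a stem-loop that is bound by the stem-loop binding protein Slbp, and not in a poly(A) tail, so libraries made from RNA with poly(A) tails hold few of them. Some of these genes also make longer messages with a poly(A) tail in cells that have stopped dividing, as most neurons of the bulb have. The symbols chosen also take in genes with other known uses: Hist1h1t and Hist1h2ba are best known from the testis, and Hist2h2be encodes an H2B variant best known from olfactory sensory neurons.

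The 4 libraries came from whole olfactory bulbs at postnatal day 11, on a mixed background of the strains C57BL/6J, 129S6 and CD1. Controls (2 libraries) were littermates without Cre, and the labels used here do not say which floxed alleles they carried. The double conditional knockouts, DCKO (2 libraries), carried Sp8 Flox/Flox, Sp9 Flox/Flox and the transgene Dlx5/6-CIE. The transgene expresses Cre from a Dlx5/6 enhancer active in GABAergic precursors, so projection neurons, glia, vessels and blood cells of the bulb are not its known targets. Whether RNA with poly(A) tails was selected is not given in the sources used here, nor is whether replicates came from separate animals, so the p-values cover only the variation among these libraries, which may be technical.

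Sp8 stood at 32.0 and 26.7 FPKM (fragments divided by transcript length and by the mapped fragments of the library) in the controls and at 1.68 and 2.03 FPKM in DCKO. Sp9 measured 24.03 and 30.7 FPKM in controls, against 0.0674 and 0.236 FPKM in DCKO. Library totals were 14911137 to 16116694 estimated fragments. All 10 bulb markers listed for the check of the tissue were present (4 rose and 5 fell by limma), among them Tbx21 of projection neurons at 27.4 to 92.5 FPKM and Calb2 of periglomerular interneurons at 284 to 308 FPKM. Markers listed for tissue outside the bulb differed between the controls. The 5 olfactory epithelium markers summed to 271 FPKM in control replicate 1, 99.0 FPKM in control replicate 2, and 186 and 148 FPKM in DCKO. The 5 bone markers summed to 49.8 and 20.2 FPKM in the controls and to 3.36 and 6.11 FPKM in DCKO. Of the bone markers, Ibsp, Bglap and Bglap2 were highest in control replicate 1, while Sp7 (14.1, 11.6, 0.334 and 0.420 FPKM) and Runx2 (3.77, 5.202, 0.519 and 0.467 FPKM) were higher in both controls and fell by limma.

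The stem-loop that defines these messages could be read in the annotated transcripts of 42 of the 64 genes. Its 16 bases were identical, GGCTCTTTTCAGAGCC, in 24 of the 42 genes, spread over classes H1, H2A, H2B and H3. The 11 H4 genes with a match had other stems: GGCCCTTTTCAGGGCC in 7 genes, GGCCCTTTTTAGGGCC in 2 and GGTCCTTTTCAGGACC in 2. Below are the DNA letters of the stem-loop (capitals) with up to 5 bases before and 9 after it, shown for genes whose values are described further on.
Hist1h1c: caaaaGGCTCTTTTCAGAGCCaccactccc
Hist3h2ba: ccaaaGGCTCTTTTCAGAGCCaccttccaa
Hist3h2a: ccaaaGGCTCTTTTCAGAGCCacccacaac
Hist1h2bg: ccaaaGGCTCTTTTCAGAGCCacccatact
Hist2h2aa1: aaaaaGGCTCTTTTCAGAGCCacccactga
Hist2h2aa2: aaaaaGGCTCTTTTCAGAGCCacccactga
Hist1h4j: ctaaaGGTCCTTTTCAGGACCaccacatct
Hist1h4i: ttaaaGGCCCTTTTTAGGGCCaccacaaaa
The windows of Hist2h2aa1 and Hist2h2aa2 are the same letter for letter, and those of Hist1h1c and Hist3h2ba share the whole loop and differ in the flanks. The search found no match in the model of Hist2h2be, which says only that these letters are not in that model.

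Few fragments lay behind most of the histone values. The columns headed count hold fragments multiplied by 1 factor per library, and dividing by that factor gives the estimated fragments used here. Of the 64 genes, 6 were at 0 in all 4 libraries, 23 averaged under 1 fragment per library (those 6 included) and 46 under 10. A further 6 genes averaged at least 100 fragments: Hist3h2a, Hist2h2be, Hist1h1c, Hist3h2ba, Hist2h3c1 and Hist1h2bc. The first 3 of these held 64.0% of all histone fragments and the first 5 held 80.2%. The 6 genes at 0 were Hist1h1t, Hist1h2ab, Hist1h2af, Hist1h2bm, Hist1h4c and Hist1h4f.

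FPKM and fragments ranked the genes differently, since 1 fragment was worth from 0.0160 to 1.42 FPKM depending on the gene. For Hist1h2bl, with a model of 381 bases, 1 fragment was worth 0.636 FPKM. For Hist2h2be, with a model of 2620 bases, 1 fragment was worth 0.0194 FPKM, 32.7 times less, while its model is 6.88 times longer. GENCODE M21 model length went with this only in part: 1 fragment was worth 1.35 FPKM for Hist1h4j (774 bases) and 0.871 FPKM for Hist2h4 (1630 bases), more than for the shorter Hist1h2bl. Which transcript lengths the authors divided by is not given in the sources used here. Hist1h2bl therefore stood at 22.4 to 41.0 FPKM with 33 to 65 fragments per library, and Hist2h2be at 5.25 to 14.9 FPKM with 282 to 727 fragments. A gene with a long annotated model could be counted well and still be low in FPKM: Hist1h1d, a linker histone gene with a model of 7425 bases, had 35, 41, 49 and 44 fragments and a mean of 0.674 FPKM.

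**Figure D1:**
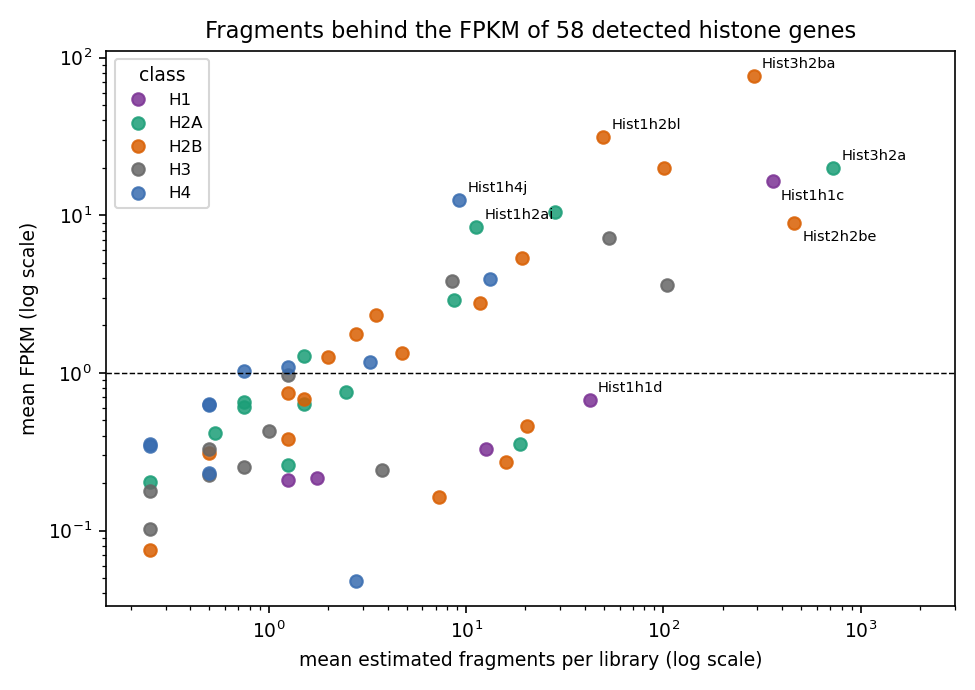
Mean FPKM over the 4 libraries (vertical, log scale) against mean estimated fragments per library (horizontal, log scale) for the 58 histone genes above 0, coloured by class. The dashed line is the filter at a mean of 1 FPKM, and Hist1h1d lies below it with more fragments than Hist1h4j or Hist1h2ai above it.

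Copies that resemble each other, and other annotated genes that overlap the histone genes, add a second limit. Each gene's annotated transcripts were split into all their windows of 50 bases, and the median gene had 50.4% of its windows found in no other gene of the annotation. In 31 genes under 50% of windows were unique and in 5 genes none was: Hist2h2aa1, Hist2h2aa2, Hist2h2bb, Hist2h3b and Hist2h3c1. Windows were matched on both strands, so an overlapping gene on either strand counts as another gene. All windows of Hist2h2bb and Hist2h3b also lie in the overlapping gene Gm20628, and those of Hist2h3c1 in the overlapping gene Gm20634. Hist1h1a, Hist1h1b, Hist1h1t and Hist2h2be were the 4 genes with 100% unique windows. How the authors' software divided fragments between copies and overlapping genes, and whether it used strand, is not given in the sources used here, so values of single copies are uncertain.

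The test compared DCKO with control on log2(FPKM + 1) with limma over all genes averaging 1 FPKM or more, and called a gene at a Benjamini-Hochberg adjusted p below 0.05 over all 13434 genes tested. The change of genes with low values is understated on this scale. Of the 64 histone genes, 24 passed the filter and 40 did not. The genes just inside were Hist1h4k (mean 1.03 FPKM), Hist2h4 (1.09 FPKM) and Hist1h4h (1.18 FPKM), and those just outside were Hist2h3b (0.968 FPKM), Hist1h2ao (0.753 FPKM) and Hist1h2bh (0.742 FPKM). Of the 24 tested, 11 averaged under 10 fragments, and of the 40 left out, 5 averaged 10 or more.

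Among the 24 tested histone genes, 3 rose (Hist1h1c, Hist1h2ai and Hist2h2aa2), 4 fell (Hist3h2ba, Hist1h2bg, Hist2h2bb and Hist1h2bl) and 17 did not pass. That is 29.2% called, against 27.3% of all tested genes (13% higher and 14.3% lower), so the share called was near the background. Hist2h2aa2 is among these calls although it passed the filter only through its DCKO values. The median log2 change was -0.25 for the 24 histone genes and -0.02 for all tested genes. FPKM of the genotypes did not overlap for 16 of the 24, DCKO being lower in 12 and higher in 4, against 71.5% of all tested genes (33.9% with DCKO higher and 37.6% with DCKO lower). Among the 12, Hist1h2bj and Hist1h4h passed the filter only through their controls (means of 1.91 and 1.67 FPKM, against 0.628 and 0.691 in DCKO). The filter itself thus favoured a fall there. Control replicate 2 and DCKO replicate 2 had equal fragments in each, 2 for Hist1h2bj and 3 for Hist1h4h. By class the calls were 1 of 1 tested H1 gene higher, 2 of 5 H2A genes higher, 4 of 10 H2B genes lower, and none of the 3 H3 or 5 H4 genes by limma. At an unadjusted p below 0.05, 9 of the 24 passed, the 7 called genes with Hist1h4i and Hist1h2bn, which is 37.5% against 43.1% of all tested genes. Without DCKO replicate 1 only 1 histone gene was called lower, and 3 were called higher.

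**Figure D2:**
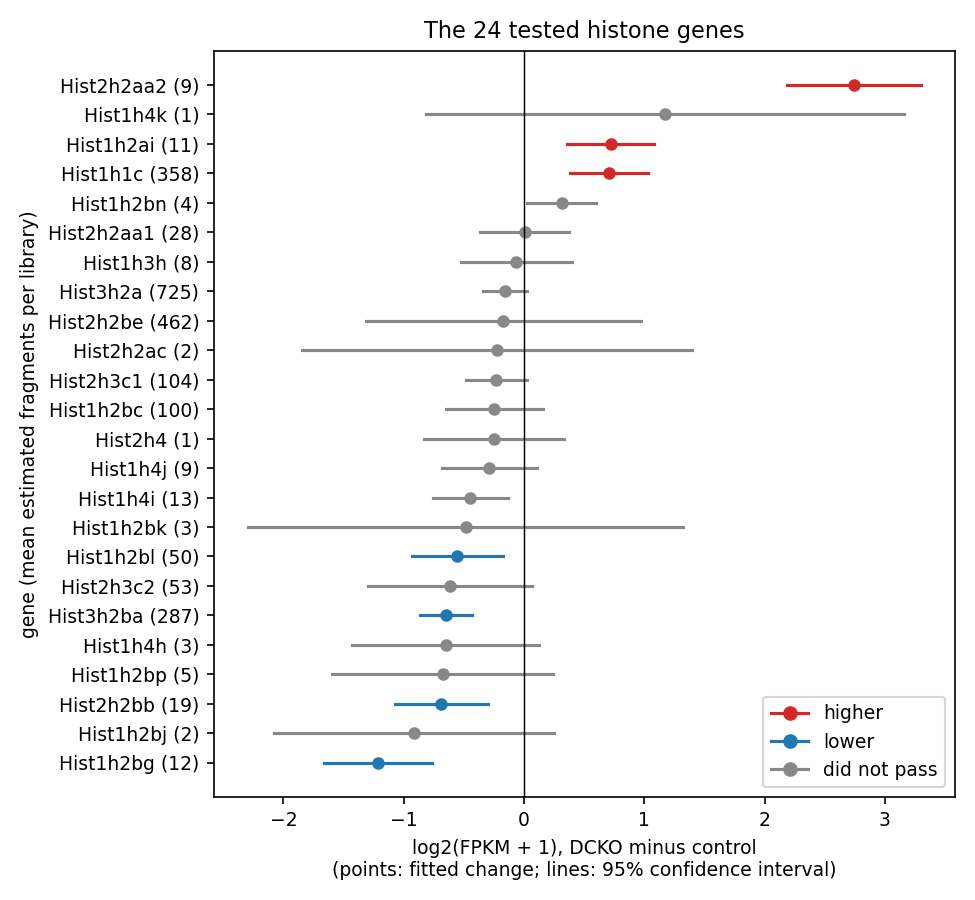
Change of log2(FPKM + 1), DCKO minus control, for the 24 tested histone genes, with 95% confidence intervals and the mean estimated fragments per library in brackets. Hist1h1c (358) and Hist3h2ba (287) have narrow intervals away from 0, while genes of few fragments such as Hist1h4k (1), Hist1h2bk (3) and Hist2h2ac (2) have wide ones; the interval of Hist2h2be (462) is wide as well.

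The linker histone gene Hist1h1c was higher in both DCKO libraries. It encodes H1.2, one of the somatic H1 proteins, and lies on chromosome 13, 23738808 to 23740367, + strand, as a single exon. It measured 12.7 and 11.7 FPKM in controls, against 23.1 and 18.2 FPKM in DCKO, from 263, 251, 499 and 421 fragments. Both DCKO values lay above both control values. The means were 12.2 ± 0.666 and 20.7 ± 3.44 FPKM (SD, n = 2 per group), 1.70-fold higher in DCKO. On the log2 scale the difference was 0.71 with an SE of 0.13, a 95% confidence interval of 0.38 to 1.03 and a limma adjusted p of 0.0194, and it stayed past the threshold in all 14 alternatives run (limma adjusted p 0.0136 to 0.0466). In its model 91.5% of windows were unique. In whole-bulb RNA, a change in the number of cells that express a gene and a change in RNA per cell cannot be told apart.

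The other H1 genes lay below the filter on low values. Hist1h1d, which encodes H1.3, had 35 and 41 fragments in the controls and 49 and 44 in DCKO, so its groups did not overlap. In the fit without a filter its log2 change was 0.11 (SE 0.08, limma adjusted p = 0.414). Hist1h1e, which encodes H1.4, had 11, 15, 12 and 13 fragments, and 23.8% of its windows also lie in the overlapping gene Hist1h2be. Hist1h1a and Hist1h1b, which encode H1.1 and H1.5, had at most 3 fragments in any library. Without Hist1h1c, the H1 genes summed to 51 and 58 fragments in the controls and to 64 and 59 in DCKO. Whether the change of Hist1h1c differs from that of the other H1 genes was not tested.

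Hist3h2ba, the histone gene of highest FPKM, was lower in both DCKO libraries. It encodes an H2B and lies on chromosome 11, 58948920 to 58949533, + strand, a single exon beside Hist3h2a and the pseudogene Hist3h2bb-ps. It measured 96.8 and 90.4 FPKM in controls, against 62.8 and 56.2 FPKM in DCKO, from 362, 328, 233 and 226 fragments. The groups did not overlap on either measure. The means were 93.6 ± 4.56 and 59.5 ± 4.68 FPKM (SD, n = 2 per group), 1.57-fold lower in DCKO. On the log2 scale the difference was -0.65 with an SE of 0.08, a 95% confidence interval of -0.86 to -0.43 and a limma adjusted p of 0.00938, and it passed in all 14 alternatives run (limma adjusted p 0.00681 to 0.0265). In its model 77.9% of windows were unique, and the closest other gene was Hist3h2bb-ps, which had at most 2 fragments in any library.

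Its neighbour Hist3h2a, which encodes an H2A, did not pass although it had the most fragments of all 64 genes. It lies on chromosome 11, 58954685 to 58956830, + strand. It measured 21.04 and 21.1 FPKM in controls, against 19.4 and 18.1 FPKM in DCKO, from 726, 790, 704 and 679 fragments. Both DCKO values were the lower ones. On the log2 scale the difference was -0.16 with an SE of 0.07, a 95% confidence interval of -0.34 to 0.02 and a limma adjusted p of 0.151. Its model overlaps Trim17 on the same strand, with which it shares 31.5% of its windows. Whether the changes of the neighbours differ from each other was not tested.

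**Figure D3:**
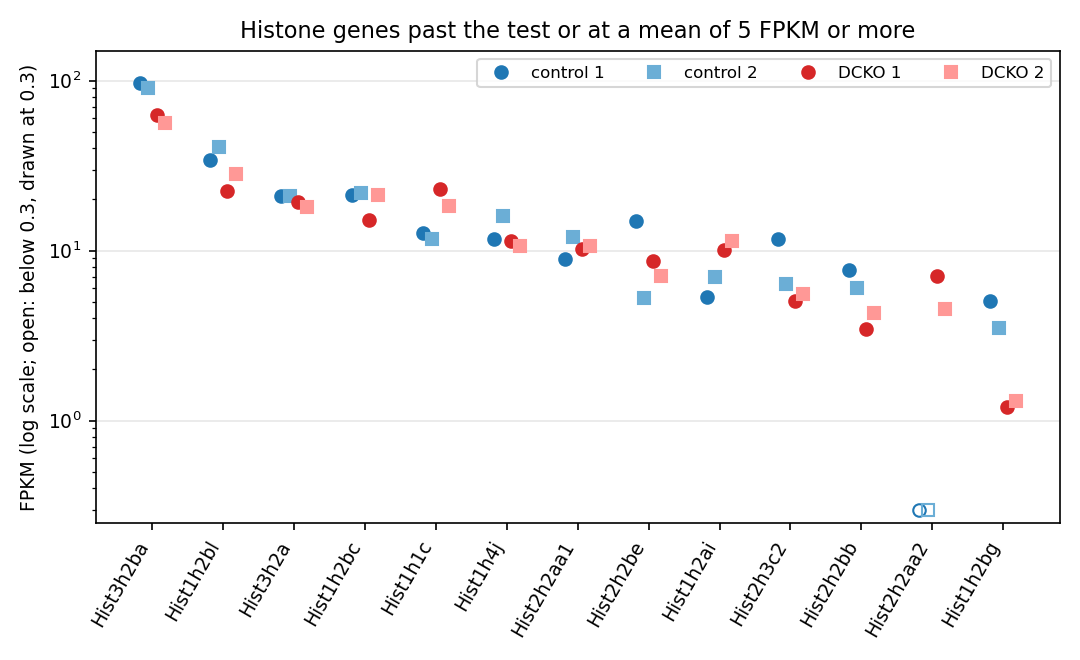
FPKM (log scale) in each of the 4 libraries for the 13 histone genes that passed the test or averaged at least 5 FPKM, in order of their mean. Points are libraries, blue for control and red for DCKO. Open points mark the controls of Hist2h2aa2, which lie below the drawn range. DCKO lies below control for Hist3h2ba and Hist1h2bg and above it for Hist1h1c, while control replicate 1 is the highest library for Hist2h2be.

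The other H2B genes that fell had few fragments. Hist1h2bg (chromosome 13, 23571396 to 23572013, + strand) measured 5.07 and 3.50 FPKM in controls, against 1.21 and 1.31 FPKM in DCKO, from 21, 15, 5 and 6 fragments. The groups did not overlap, and the summed fragments of 36 in controls (exact 95% Poisson interval 25.2 to 49.8) and 11 in DCKO (5.49 to 19.7) did not either; these intervals cover counting error only. Its mean was 3.41-fold lower (log2 change -1.21, SE 0.17, limma adjusted p = 0.0120). The call was lost without DCKO replicate 1 (limma adjusted p = 0.0513) and on the scaled counts (0.0714).

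Hist2h2bb (chromosome 3, 96269752 to 96270132, + strand) measured 7.74 and 6.04 FPKM in controls, against 3.48 and 4.30 FPKM in DCKO, from 27, 22, 12 and 16 fragments (log2 change -0.69, SE 0.15, limma adjusted p = 0.0312). All of its windows also lie in an overlapping annotated gene, Gm20628. Hist1h2bl (chromosome 13, 21715763 to 21716143, - strand) measured 34.2 and 41.0 FPKM in controls, against 22.4 and 28.3 FPKM in DCKO, from 54, 65, 33 and 46 fragments. Its log2 change was -0.55 (SE 0.15, limma adjusted p = 0.0491), and only 17.2% of its windows were unique. In each of these 2 genes the groups did not overlap, and each lost its call in 6 of 14 alternatives. For Hist2h2bb those included leaving out control replicate 1 (limma adjusted p = 0.0937), DCKO replicate 1 (0.0993) or DCKO replicate 2 (0.0506), and the replicate block (0.0518). For Hist1h2bl they included leaving out control replicate 2 (limma adjusted p = 0.134) or DCKO replicate 1 (0.125).

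Hist1h2bc, an H2B gene with 2 annotated exons, had 106, 108, 75 and 113 fragments. It measured 21.2 and 21.9 FPKM in controls, against 15.3 and 21.1 FPKM in DCKO. DCKO replicate 1 was the low library, DCKO replicate 2 lay next to the controls, and the gene did not pass (log2 change -0.25, SE 0.16, limma adjusted p = 0.280). Without DCKO replicate 2 it would be called lower (log2 change -0.47, limma adjusted p = 0.0284). Hist1h2bq and Hist1h2br, which share 97.3% of the windows of the first, together had 19 and 22 fragments in the controls and 29 and 40 in DCKO. Both were below the filter.

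Hist2h2be differed more between the controls than between genotypes. It encodes the variant H2BE, which differs slightly from canonical H2B, and lies on chromosome 3, 96221119 to 96223738, + strand. It measured 14.9 and 5.25 FPKM in controls, against 8.66 and 7.11 FPKM in DCKO, from 727, 282, 450 and 388 fragments. Control replicate 1 was the highest and control replicate 2 the lowest library, so both DCKO libraries lay between the controls. On the log2 scale the difference was -0.17 with an SE of 0.44, a 95% confidence interval of -1.32 to 0.97 and a limma adjusted p of 0.792. It became 0.50 without control replicate 1 (limma adjusted p = 0.0972) and -0.84 without control replicate 2 (limma adjusted p = 0.0195).

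Markers of olfactory sensory neurons, whose cell bodies lie in the olfactory epithelium and whose axons end in the bulb, were also highest in control replicate 1 for 4 of the 5 listed genes. Omp, the olfactory marker protein gene, measured 98.4 and 20.1 FPKM in controls, against 31.5 and 20.3 FPKM in DCKO. Cnga2, a subunit of the olfactory transduction channel, measured 10.2 and 0.303 FPKM in controls, against 0.206 and 0.212 FPKM in DCKO. Ano2, the chloride channel of these cells, measured 2.64 and 0.170 FPKM in controls, against 0.0527 and 0.137 FPKM in DCKO. Gng13 was as high in DCKO replicate 1 (146 FPKM) as in control replicate 1 (144 FPKM). None of the 5 markers was at 0 in all libraries, and the whole list summed to 271 and 99.0 FPKM in the controls and to 186 and 148 FPKM in DCKO. The part of such RNA in the Hist2h2be values was not tested.

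**Figure D4:**
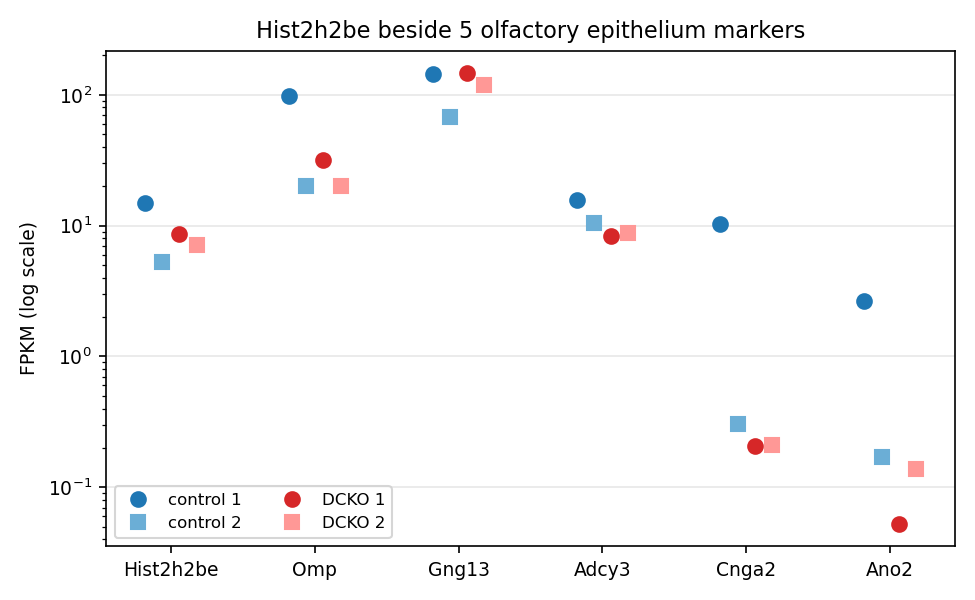
FPKM (log scale) of Hist2h2be and of 5 olfactory epithelium markers in each library; points are libraries, blue for control and red for DCKO. Control replicate 1 is the highest library for Hist2h2be (14.9 FPKM), Omp (98.4 FPKM), Adcy3, Cnga2 and Ano2, and lies level with DCKO replicate 1 for Gng13.

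Among H2A genes, the largest listed change belonged to 1 of 2 matching copies. Hist2h2aa1 (chromosome 3, 96245497 to 96246082, + strand) and Hist2h2aa2 (96239749 to 96240276, - strand) lie close together in opposite orientation. All windows of Hist2h2aa2 also occur in Hist2h2aa1, and 89.2% of those of Hist2h2aa1 occur in Hist2h2aa2. In the controls the deposited values gave 24 and 31 fragments to Hist2h2aa1 and none in whole numbers to Hist2h2aa2 (0.000510 and 0.000382 FPKM). In DCKO they gave 27 and 31 fragments to Hist2h2aa1 and 21 and 14 to Hist2h2aa2. Hist2h2aa2 was thus called higher (log2 change 2.74, SE 0.22, limma adjusted p = 0.00295). It passed the filter only through its DCKO values (mean 5.82 FPKM), so the filter itself favoured a rise, and the call is not separate support for one. With the controls at 0 fragments the size depends on the pseudocount, and it was 3.63 with a pseudocount of 0.5, 5.85 with 0.1 and 4.09 on the scaled counts. Hist2h2aa1 was not called (log2 change 0.01, SE 0.14, limma adjusted p = 0.972). A sum over both copies does not depend on how fragments were divided between the copies, but it can depend on the division with other genes, since Gm20633 in the annotation holds all windows of both. The sum was 24 and 31 in the controls against 48 and 45 in DCKO. Summed FPKM was 8.96 and 12.04 in the controls and 17.4 and 15.1 in DCKO, 1.55 times the control mean. The pair's sum does not overlap between genotypes and was not tested.

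**Figure D5:**
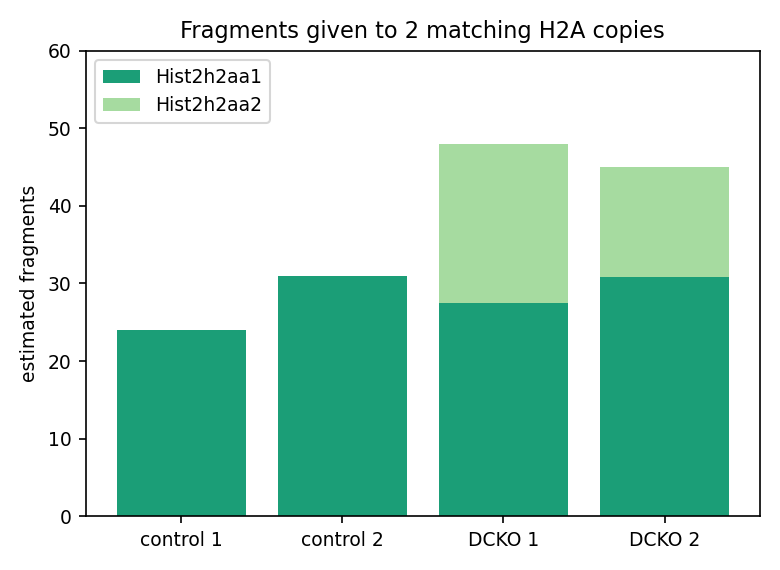
Estimated fragments given to Hist2h2aa1 (dark) and Hist2h2aa2 (light) in each library, stacked from 0. The controls reach 24 and 31, all from Hist2h2aa1, and the DCKO libraries reach 48 and 45, with 21 and 14 of these from Hist2h2aa2.

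Hist1h2ai (chromosome 13, 21716422 to 21716814, + strand) was the other H2A gene called. It measured 5.31 and 6.97 FPKM in controls, against 10.04 and 11.4 FPKM in DCKO, from 7, 9, 13 and 16 fragments. Both DCKO values were above both controls (log2 change 0.72, SE 0.14, limma adjusted p = 0.0238). The Poisson intervals of its summed fragments overlapped, 16 in controls (9.15 to 26.0) and 29 in DCKO (19.4 to 41.6). Only 9.88% of its windows were unique. It lost its call in 5 of 14 alternatives, among them without control replicate 1 (limma adjusted p = 0.0532), DCKO replicate 1 (0.0618) or DCKO replicate 2 (0.0801). The copies Hist1h2ao and Hist1h2ap show the division of fragments at the lowest depth. Together they had 3 fragments in every library, of which Hist1h2ap received 2 in control replicate 1 and under 1 in each of the others.

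H3 and H4 genes gave no call by limma. Hist2h3c2 (chromosome 3, 96238108 to 96239127, - strand) measured 11.7 and 6.38 FPKM in controls, against 5.05 and 5.59 FPKM in DCKO, from 84, 46, 37 and 45 fragments. Control replicate 1 was the high library, and the change did not pass (log2 change -0.62, SE 0.26, limma adjusted p = 0.143). It passed without control replicate 2, leaving the high control alone (log2 change -1.01, limma adjusted p = 0.00866). Hist2h3c1 (chromosome 3, 96246685 to 96248509, + strand) had 113, 116, 95 and 94 fragments and a log2 change of -0.23 (SE 0.10, limma adjusted p = 0.139).

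The H4 genes had the fewest fragments, 27 to 39 per library summed over 13 genes. Hist1h4j (chromosome 13, 21735064 to 21735837, + strand) measured 11.7 and 16 FPKM in controls, against 11.5 and 10.7 FPKM in DCKO, from only 9, 12, 8 and 8 fragments (log2 change -0.29, SE 0.15, limma adjusted p = 0.212). Hist1h4i had 14, 17, 10 and 12 fragments and just missed the threshold (log2 change -0.45, limma adjusted p = 0.0523), and it passed with a pseudocount of 0.1 (0.0495) or without the variance trend (0.0488). Hist1h4k, listed at 0 in 3 libraries, had 3 fragments in DCKO replicate 2. These 3 fragments alone gave it 4.11 FPKM and its place in the test. Without DCKO replicate 1, leaving that library alone in its group, it would be called higher (limma adjusted p = 0.0153).

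Summed over all 64 genes, histone fragments were 2702 and 2259 in the controls and 2395 and 2304 in DCKO. Relative to library totals, the DCKO mean was 0.930 times the control mean, and the controls spanned both DCKO values. Without Hist2h2be the sums were 1975, 1977, 1945 and 1916 fragments. Summed FPKM, which weights each fragment by its gene, was 289 and 277 in the controls and 236 and 233 in DCKO, and 2 of the genes that moved, Hist3h2ba and Hist1h2bl, are among its largest terms. By class, H1 summed to 314, 309, 563 and 480 fragments, of which genes other than Hist1h1c gave 51, 58, 64 and 59, and H2B without Hist2h2be summed to 632, 594, 412 and 479. H2A summed to 785, 853, 793 and 772, and H3 to 211, 182, 150 and 154. These sums are descriptions and were not tested.

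Sets of genes that differ in the annotated end of their models held different shares of the fragments. In 20 genes the model stops within 100 bases after the stem-loop, as a message without poly(A) tail would, and these held 2.46% of the histone fragments, 51 to 67 per library. In 22 genes the model runs more than 100 bases past the stem-loop, as in Hist1h1c (840 bases), Hist3h2ba (169 bases) and Hist3h2a (1643 bases), and these held 68.9%. The 22 genes with no stem-loop found held 28.7%. A few genes made up most of the larger shares. In the second set Hist3h2a, Hist1h1c and Hist3h2ba averaged 724.75, 358.5 and 287.25 fragments, against a median of 10.5 per gene. Among genes with no stem-loop found, Hist2h2be averaged 461.75, against a median of 1.375. The median of the first set was 0.875. A poly(A) signal (AATAAA or ATTAAA) stood in the last 40 bases of 17 models, which held 83.5% of the fragments. Longer models collect more fragments at equal abundance, and median FPKM per gene differed less, 0.532 in the first set and 0.651 in the second. In the first set the sums were 54 and 51 fragments in the controls and 67 and 66 in DCKO, with 35 of the DCKO fragments from Hist2h2aa2.

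The sequence upstream of the genes carries the marks of the family. RefSeq promoters (GRCm38.p6) were matched for 58 of the 64 genes, and the 250 bases before each of their 59 start sites were searched on both strands. CCAAT occurred in 81.4% of histone windows and in 33.9% of all 32851 promoters, and it was in every H1, H2A and H2B window but in 3 of 12 H4 windows. The octamer ATTTGCAT, the site of the Oct factors, occurred in 6 of 15 H2A and 7 of 17 H2B windows and in none of H1, H3 or H4, against 1.60% of all promoters. TATAAA occurred in 45.8% of histone windows and 12.4% of all. Neighbouring H2A and H2B genes on opposite strands share some of these windows, so they are not independent. The windows of the best counted gene that rose, the best counted gene that fell and a gene with all 3 motifs are printed 5′ to 3′ on the gene's strand, with motif matches in capitals.
Hist1h1c, chr13:23738557-23738806, + strand: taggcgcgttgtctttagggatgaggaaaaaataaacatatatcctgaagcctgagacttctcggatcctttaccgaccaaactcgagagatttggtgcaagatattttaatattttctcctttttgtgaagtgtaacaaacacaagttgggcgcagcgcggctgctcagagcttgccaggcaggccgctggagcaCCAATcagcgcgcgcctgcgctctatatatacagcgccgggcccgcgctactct
Hist3h2ba, chr11:58948661-58948910, + strand: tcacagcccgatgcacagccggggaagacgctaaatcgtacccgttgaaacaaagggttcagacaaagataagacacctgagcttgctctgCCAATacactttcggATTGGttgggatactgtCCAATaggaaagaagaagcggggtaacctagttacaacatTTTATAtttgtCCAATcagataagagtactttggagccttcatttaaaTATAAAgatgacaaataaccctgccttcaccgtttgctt
Hist1h2bg, chr13:23571150-23571399, + strand: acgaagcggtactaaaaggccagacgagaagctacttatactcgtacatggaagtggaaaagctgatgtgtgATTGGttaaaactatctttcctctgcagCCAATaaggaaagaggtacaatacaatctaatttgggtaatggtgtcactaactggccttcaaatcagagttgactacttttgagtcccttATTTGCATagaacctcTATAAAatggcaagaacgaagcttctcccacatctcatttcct
The Hist1h2bg window holds CCAAT on both strands, the octamer and TATAAA, and the Hist1h1c window holds 1 CCAAT. A match describes the letters and does not show that a factor binds there.

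Some cell cycle genes listed beside the histones rose. Of 19 tested S phase genes, 6 rose and 0 fell by limma, also 0 at an unadjusted p below 0.05 (median log2 change 0.47). That is 31.6% called, all higher, against 27.3% of all tested genes called and 13% called higher. The thymidine kinase Tk1 rose from 1.73 and 2.15 to 4.32 and 5.62 FPKM (log2 change 1.02, limma adjusted p = 0.0133). Also higher were Rrm2, a subunit of ribonucleotide reductase (log2 change 0.87), the cyclin Ccna2 (0.85) and the helicase subunit Mcm3 (0.73), with limma adjusted p of 0.0149 to 0.0282. Rrm2 lost its call without DCKO replicate 2, and Mcm3 without control replicate 1 or control replicate 2. All 9 tested mitosis genes rose (median log2 change 0.85), led by the topoisomerase Top2a (1.01), the cyclin Ccnb1 (0.98), Birc5 of the chromosomal passenger complex (0.94) and the proliferation marker Mki67 (0.92). That is 100% called higher, against 13% of all tested genes. With no filter, 5 of 10 mitosis genes and 4 of 21 S phase genes were called higher. The mitosis count was also lower with any 1 library left out. The S phase list summed to 79.0 and 80.9 FPKM in the controls and to 96.5 and 135 in DCKO, and the mitosis list to 21.4 and 22.1 against 41.9 and 52.0.

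Some of the markers listed for cell types outside the neuronal lineage rose as well, and others did not. The 8 red cell lineage genes in the table summed to 840 and 523 FPKM in the controls and to 2231 and 3153 in DCKO. Of the 6 tested, 3 rose (50%, against 13% of all tested genes), and none of the 8 was at 0 in all libraries. Alas2, the haem synthesis enzyme of red cell precursors, measured 2.27 and 1.85 FPKM in controls, against 8.88 and 11.6 FPKM in DCKO. Of 5 tested microglia and immune genes 4 rose (80%, against the same 13%). That list of 6 summed to 46.0 and 46.1 FPKM in the controls and to 69.0 and 74.7 in DCKO. None of 4 genes of oligodendrocyte precursors, a dividing cell of the young brain, passed in limma, and they summed to 61.8 and 68.7 against 82.4 and 66.0 FPKM. The part of any of these cells in the changes of histone and cell cycle genes was not tested.

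Most of the genes listed as replication-independent histone variants make messages with poly(A) tails, also outside S phase. Among the 11 listed, all tested, 1 gene rose, 2 fell and 8 did not pass (median log2 change -0.18). That is 27.3% called, against 27.3% of all tested genes. The centromere histone Cenpa, which dividing cells make, rose from 1.70 and 1.85 to 4.18 and 6.02 FPKM (log2 change 1.12, SE 0.17, limma adjusted p = 0.0136). H3f3b, 1 of the genes of the H3.3 protein that neurons use to replace histones, fell from 244 and 217 to 139 and 173 FPKM (log2 change -0.57, limma adjusted p = 0.0358), and the macroH2A gene H2afy fell as well (log2 change -0.40, limma adjusted p = 0.0468). Leaving out control replicate 1, control replicate 2 or DCKO replicate 1 gave 0 variants called lower by limma, and leaving out DCKO replicate 2 gave 4. The linker variant H1f0, typical of cells that no longer divide, stood at 50.5, 50.4, 50.5 and 49.04 FPKM, and its 95% confidence interval was -0.18 to 0.14 on the log2 scale.

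Of 15 tested genes of histone mRNA synthesis and end processing 2 fell, the scaffold Sympk of the cleavage complex (from 35.7 and 36.2 to 26.1 and 25.8 FPKM, log2 change -0.46, limma adjusted p = 0.0100) and the cap-binding subunit Ncbp1 (-0.32, limma adjusted p = 0.0461). That is 13.3% called, against 27.3% of all tested genes. The count that fell was 1 without control replicate 1, 0 without control replicate 2 (Sympk then at a limma adjusted p of 0.0547), 1 without DCKO replicate 1 and 4 without DCKO replicate 2. Slbp measured 11.5 and 10.7 FPKM in controls, against 12.7 and 13.01 FPKM in DCKO and did not pass (limma adjusted p = 0.119). Npat, the activator of histone gene transcription, stood at 3.78 and 3.79 against 3.61 and 3.97 FPKM. Of 16 tested histone chaperones, Chaf1b of the replication-coupled complex CAF-1 rose from 0.878 and 0.932 to 1.99 and 2.84 FPKM (log2 change 0.83, limma adjusted p = 0.0268). Chaf1b lay under the filter in the controls (mean 0.905 FPKM) and passed it only through DCKO. Atrx, which deposits H3.3, fell (-0.34, limma adjusted p = 0.0480), and the other 14 did not pass, so 12.5% were called against 27.3% of all tested genes. The call of Atrx was lost in 7 of 14 alternatives, among them without control replicate 1, control replicate 2 or DCKO replicate 1, and without DCKO replicate 2 the chaperones called lower were 4. Chaf1b lost its call without DCKO replicate 2 (limma adjusted p = 0.0602).

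Other RNAs made without a poly(A) tail were listed at few FPKM and differed between single libraries. Of 6 in the table, 4 were tested and 2 rose: the RNase P RNA Rpph1 (0 and 1.07 FPKM in controls, 6.88 and 3.17 in DCKO, limma adjusted p = 0.0355) and Scarna13 (0 in both controls, 3.35 and 1.59 FPKM in DCKO, limma adjusted p = 0.0151). The 2 called are 50% of those tested, against 27.3% of all tested genes. Both passed the filter only through DCKO, where they were high, with control means of 0.537 and 0 FPKM. Rmrp stood at 0 and 5.29 against 17.0 and 7.11 FPKM and did not pass, and Vaultrc5 was listed at 0 in all 4. Scarna6 went the other way, at 4.25 FPKM in control replicate 1 and 0 in the other libraries. It did not pass (log2 change -1.20, limma adjusted p = 0.294). The count called higher moved with the setting: 1 gene with the replicate block or with a pseudocount of 0.1, and 0 on the scaled counts. With 1 library left out the calls moved as well, in both directions. None of the 6 genes reached a mean of 10 fragments together with 1 FPKM. The list summed to 4.66 and 6.74 FPKM in the controls and to 27.6 and 12.6 in DCKO. Whether the libraries differed in how much RNA without poly(A) tail they kept, and its part in the histone values, was not tested.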

How the data were processed

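RNA of 4 olfactory bulb samples was sequenced by the authors, and any selection of RNA with poly(A) tails is not given in the sources used here. Per the submitters' processing notes, TopHat (version not given) and Cufflinks 2.1.1 were used with GRCm38.p4; annotation, settings and strand were not given in the sources used here. FPKM values deposited by the authors are, per the file headers, scaled by length and mapped fragments. The deposited columns headed count are a signal: each library has 1 step, and 98.7% to 98.8% of nonzero values came within 0.05 of a whole number of steps. They were divided by that step to give estimated fragments, and no count model was applied, so the planned count test was not run. Columns were mapped by the codes in the sample descriptions, and 0 were left unmapped.

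limma 3.58.1 (R 4.3.3) was run on log2(FPKM + 1) of the 13434 genes averaging 1 FPKM or more, DCKO minus control, with an intensity trend, two-sided, Benjamini-Hochberg over all genes, threshold 0.05. The fit was also run on simulated normal values drawn from its own variance model, with changes placed only in genes of higher mean. That run cannot show how the test behaves for genes of few fragments. Annotation was GENCODE M21, with 64 of 64 symbols matched. Members, lists and the naming rule (every called member, every member with a mean of at least 5 FPKM, the 3 nearest either side of the filter, up to 4 called genes per list) were chosen with earlier results of these data known; further members, among them Hist1h1d, Hist1h1e, Hist2h3c1 and Hist1h4i, and other list genes were named after their values were seen. Alternatives covered pseudocount, filter, scaling, trend, replicate block, each library left out and the scaled counts; a filter at 10 fragments was added after seeing the data.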

Additional observations from a re-analysis of the deposited data

How the results depend on the processing

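Hist1h1c and Hist3h2ba kept direction and call in every alternative run; every called histone gene kept its direction. Histone genes called higher numbered 2 to 3 and lower 1 (without DCKO replicate 1) to 5 with 1 library left out, against 3 and 4 with all. Genes called lower dropped to 2 with no filter and to 1 on scaled counts. With no filter, Hist1h2ba was called from 1, 1, 2 and 2 fragments. Over all genes, 806 (without control replicate 2) to 1384 rose and 1030 (without control replicate 1) to 1875 fell with 1 library left out, against 1747 and 1926 with all; a lone library was assumed to vary like the other group. S phase genes called higher dropped to 3 at a filter of 5 FPKM, where fewer genes were tested. Of the 24 tested histone genes, 7 that had not passed turned sign or fell to 0 with 1 library left out. Over these settings the log2 change ran from -0.19 (without control replicate 1; -0.01 without DCKO replicate 2) to 0.20 for Hist2h2aa1, from -0.84 to 0.50 (without control replicate 1) for Hist2h2be, from -1.52 to 0.54 (without DCKO replicate 1) for Hist1h2bk, from -0.27 to 0.14 (without control replicate 2; 0.056 without DCKO replicate 2) for Hist1h3h, from -1.15 to 0.70 (without DCKO replicate 2; 0.030 without control replicate 1) for Hist2h2ac, from 0 (without DCKO replicate 2) to 2.35 for Hist1h4k, and from -0.53 to 0.028 (without control replicate 2) for Hist2h4. The cause was not tested.

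Replicate numbers are shared between genotypes, but same-numbered libraries did not deviate together (correlation across genes -0.02), so they were not taken as pairs. With the replicate block 1312 genes rose and 1418 fell, and among histone genes 3 rose and 3 fell. The planned count test was not run, since the count columns could not be turned into whole reads. Depth limits most members: 46 of 64 averaged under 10 fragments.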
